A study of Rattus norvegicus with 16 samples.

Results

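Chemokines, endothelial adhesion molecules and leukocyte antigens mark the steps by which white blood cells enter injured tissue. A chemokine draws leukocytes toward a site, VCAM1 and ICAM1 on activated endothelium and injured epithelium bind leukocyte integrins, CD68 is a lysosomal glycoprotein of macrophages, and CD45, the product of Ptprc, is a membrane phosphatase carried by nucleated blood cells. In the kidney this set of genes is commonly read as a measure of interstitial inflammation. The subject here is a set of 5 Ensembl gene IDs out of the 32623 in the deposited tables, chosen by ID and name: Vcam1 (ENSRNOG00000014333), Icam1 (ENSRNOG00000020679), Cd68 (ENSRNOG00000037563), Ptprc (ENSRNOG00000000655) and ENSRNOG00000007159. The deposited tables carry IDs without symbols, and a symbol was attached to 4 of the 5 because their TPM equalled, library by library, those printed beside that symbol in the gene lists of the study. ENSRNOG00000007159 had no such match and is reported by its ID alone, with no statement of what it encodes. All 5 passed the filter on low counts.

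Whole kidney tissue of male Sprague-Dawley rats, with an age of 6 weeks in the labels, gave 16 polyA RNA sequencing libraries, 4 in each of 4 groups. The methods give no age, but give 6 weeks from the start of DOCA injections to sacrifice. The 6 weeks in the labels may therefore be the treatment time. Control rats had a sham operation. DOCA rats lost a kidney by surgery, then received injections of deoxycorticosterone acetate (DOCA), a mineralocorticoid, with salt in the drinking water and a vehicle by gavage. Finerenone and spironolactone rats had the same operation, hormone and salt according to the methods, with DOCA in their labels, and received a mineralocorticoid receptor antagonist, the nonsteroidal finerenone or the steroidal spironolactone. Every contrast with control therefore covers the operation, the hormone and the salt together, and these cannot be told apart. The labels number the libraries of a group 1 to 4 without saying which animal each came from, so p-values measure the spread between these libraries. The study's text reports 1 DOCA and 1 spironolactone outlier in a principal component analysis of its bulk libraries, without giving their numbers. DOCA replicate 4 and spironolactone replicate 4 are absent from the study's own lists of these groups. The tests used the other 14 libraries, leaving 4 control, 3 DOCA, 4 finerenone and 3 spironolactone libraries. Values with both put back are given for each gene's finerenone against DOCA result and for some other results. Library totals ran from 7063146 to 10932887 estimated counts, and 3 counts, taken as the detection floor, corresponded to between 0.247 and 0.485 CPM (counts scaled to equal library size). Genes expressed in tubule epithelium were present, with control means of 24.5 TPM for the sodium channel subunit Scnn1a and 19.3 TPM for the epithelial cadherin Cdh1. A whole-tissue library cannot tell more cells of a type from more RNA per cell.

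Below, a level is in CPM on a trimmed mean of M-values (TMM) scale set over all 16 libraries unless TPM, which corrects for transcript length, is named. Means are given ± SD over the tested libraries. A gene was called when the adjusted p of edgeR's quasi-likelihood test, corrected by Benjamini-Hochberg over 14628 genes, was below 0.05 and the log2 fold change was at least 0.5 in size.

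In the DOCA kidneys all 5 genes were higher than in control, by 1.89-fold to 7.08-fold, and no DOCA library overlapped a control library for any of them, where 21.9% of all genes tested lay higher without overlap. With finerenone all 5 lay between control and DOCA, 4 of the 5 were called lower than in DOCA, and for all 5 the libraries did not overlap, against 16.5% of all genes lower without overlap. With spironolactone none of the 5 was called different from DOCA. Over all genes tested, 15.4% were called higher in DOCA than in control, 7.70% lower with finerenone than in DOCA, and 0% in either direction between spironolactone and DOCA. The members' called counts of 5 of 5, 4 of 5 and 0 of 5 stand beside those shares. The members were chosen with earlier results known, and 4 of them are among the 1999 IDs with a symbol. Most of those IDs are genes the study listed as changed by DOCA. Among the 1999, 76.9% were called higher in DOCA than in control. With finerenone 37.3% were called lower than in DOCA, and 0% were called between spironolactone and DOCA.

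**Figure D1:**
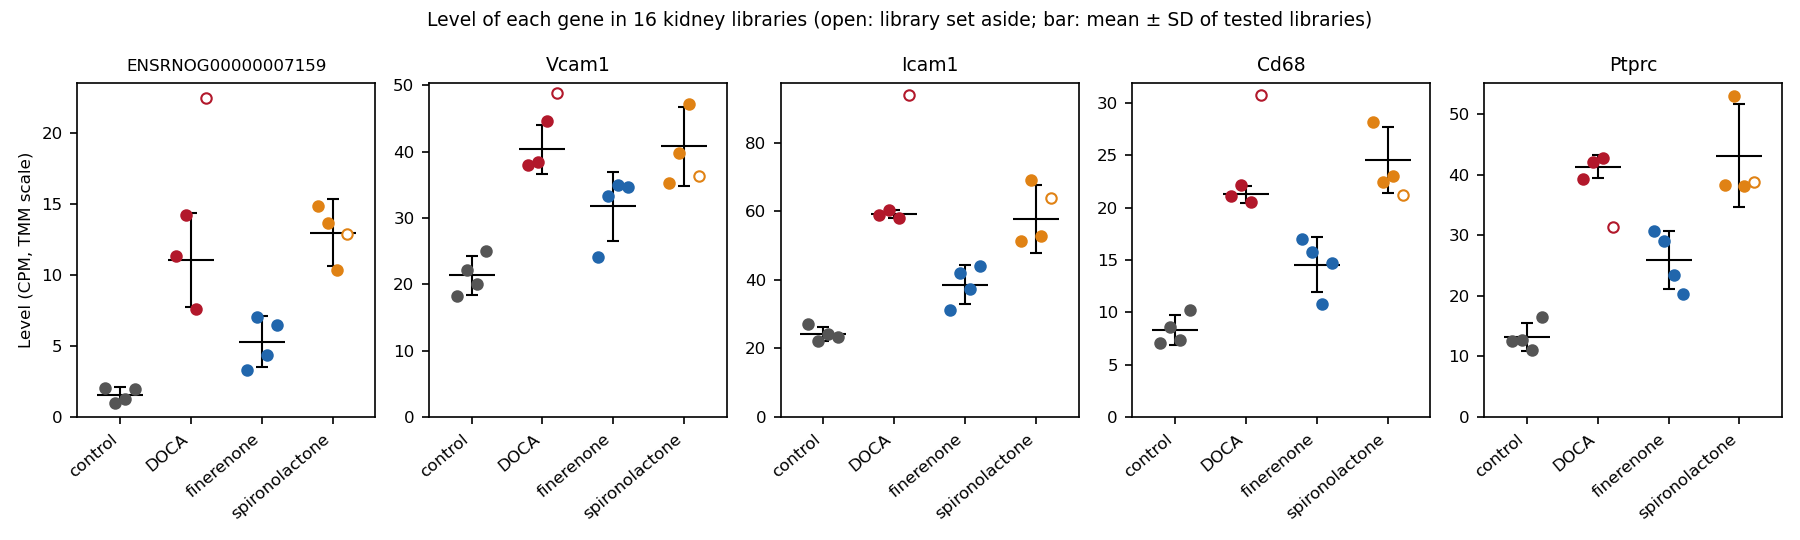
Level of each of the 5 genes in CPM (linear axis from 0) in the 16 libraries, by group; filled points are tested libraries, open points the 2 libraries set aside, and bars the mean ± SD of the tested libraries. Every DOCA and spironolactone point lies above every control point, and the open DOCA point is the highest of its group for 4 genes and the lowest for Ptprc.

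The ID without a symbol had the largest fold. ENSRNOG00000007159 stood at 2.04, 0.950, 1.28 and 1.94 CPM in control replicates 1 to 4, at 11.4, 14.2 and 7.64 CPM in DOCA replicates 1 to 3, and at 22.5 CPM in DOCA replicate 4. Finerenone replicates 1 to 4 gave 3.31, 7.08, 4.33 and 6.51 CPM, and spironolactone replicates 1 to 4 gave 14.9, 13.7, 10.4 and 12.9 CPM. The lowest DOCA library was above the highest finerenone library by a small margin, and the lowest finerenone library was above the highest control. The mean rose from 1.55 ± 0.527 CPM (n = 4) in control to 11.1 ± 3.30 CPM (n = 3) in DOCA, a log2 fold change of 2.82 ± 0.32 (SE, edgeR adjusted p = 3.7e-06). The control level rested on few reads, 6 to 13 counts per library and 40 counts in all, for which an exact 95% Poisson interval, covering counting error only, runs from 28.6 to 54.5. With finerenone the mean was 5.31 ± 1.78 CPM (n = 4), a log2 fold change of -1.06 ± 0.28 against DOCA (edgeR adjusted p = 0.0123). This call was lost when DOCA replicate 2 was left out (log2 fold change -0.84, edgeR adjusted p = 0.0789) and when libraries whose label codes begin with the same number were summed (-0.94, edgeR adjusted p = 0.119). With all 16 libraries the log2 fold change was 3.15 for DOCA against control and -1.39 for finerenone against DOCA, both called.

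Vcam1 encodes the adhesion molecule that holds monocytes and lymphocytes to activated endothelium, and it is also switched on in injured tubule cells. Its promoter and that of Icam1, the other adhesion gene of the set, are shown because both genes are textbook targets of NF-kappaB, whose sites share a core of GGG, then any 5 bases, then CC. The 250 bases before the RefSeq start of each gene (GRCr8 build, a different assembly from the one the counts were made on) are written from 5′ to 3′ on the strand of the gene, with capitals for matches to this core on either strand and, in Icam1, also to TGGAAATTCC. They lie at chr2:206742784-206743033 on the minus strand for Vcam1 and chr8:27829595-27829844 on the plus strand for Icam1.
Vcam1: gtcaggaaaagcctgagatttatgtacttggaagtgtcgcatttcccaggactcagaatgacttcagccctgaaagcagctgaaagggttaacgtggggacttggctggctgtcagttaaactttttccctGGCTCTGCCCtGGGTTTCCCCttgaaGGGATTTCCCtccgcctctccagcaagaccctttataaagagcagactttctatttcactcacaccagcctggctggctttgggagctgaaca
Icam1: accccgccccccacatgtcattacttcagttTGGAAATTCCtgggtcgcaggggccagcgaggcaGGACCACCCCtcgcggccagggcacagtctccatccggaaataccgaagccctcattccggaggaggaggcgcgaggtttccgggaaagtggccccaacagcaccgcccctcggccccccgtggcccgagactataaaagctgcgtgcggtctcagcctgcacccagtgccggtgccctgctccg

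The Vcam1 window held 3 matches close together, at bases 119 to 110, 108 to 99 and 93 to 84 before the start; the middle and the nearest matched on both strands. The Icam1 window held 1 match to the core, at bases 185 to 176 before the start on the minus strand, and 1 copy of TGGAAATTCC at bases 219 to 210. Over the same window in all 33469 RefSeq promoters of the table, 42.3% held the core and 0.0956%, 32 promoters, held TGGAAATTCC on either strand, a sequence that the core does not cover and that was added after the Icam1 window had been read. The windows of Cd68 and Ptprc held 0 matches to either. These are matches of letters, and binding was not measured here.

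Vcam1 stood at 18.2, 22.2, 20.0 and 25.1 CPM in control replicates 1 to 4 and at 37.9, 38.5 and 44.6 CPM in DOCA replicates 1 to 3, with 48.8 CPM in DOCA replicate 4. Finerenone replicate 1, at 24.1 CPM, fell inside the control range, while finerenone replicates 2 to 4 stood at 33.4, 35.0 and 34.7 CPM. Spironolactone replicates 1 to 4 had 35.3, 39.9, 47.2 and 36.3 CPM, and the lowest of them lay just above the highest finerenone library. DOCA exceeded control with a log2 fold change of 0.92 ± 0.15 (SE, edgeR adjusted p = 9.69e-05), the smallest of the 5. Finerenone against DOCA gave -0.34 ± 0.14, which did not pass (edgeR adjusted p = 0.0965, 95% interval of the log2 fold change -0.64 to -0.04), although every finerenone library lay below every DOCA library. With all 16 libraries it was -0.42 (edgeR adjusted p = 0.0340), which missed the size limit alone and was not called. On a scale set by library size alone, where the median of all genes stood at -0.29 against -0.03 on the TMM scale, the Vcam1 value was -0.60 and was called (edgeR adjusted p = 0.00588). On log2(TPM + 1) the Vcam1 value was -0.68 (limma adjusted p = 0.00516) against a median of -0.34 for all genes.

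Icam1 encodes the ligand of the leukocyte integrin built from Itgal and Itgb2. It stood at 27.1, 22.2, 24.3 and 23.3 CPM in control replicates 1 to 4 and at 58.8, 60.4 and 58.2 CPM in DOCA replicates 1 to 3, a coefficient of variation of 1.94%, the lowest of the 20 sets of tested libraries (5 genes in 4 groups). DOCA replicate 4, set aside from the test, stood far above them at 93.9 CPM. Finerenone replicates 1 to 4 gave 31.3, 42.0, 37.2 and 44.1 CPM, all above control and all below DOCA. The mean went from 24.2 ± 2.09 CPM (n = 4) in control to 59.2 ± 1.15 CPM (n = 3) in DOCA, a log2 fold change of 1.29 ± 0.13 (SE, edgeR adjusted p = 1.14e-06), and to 38.6 ± 5.71 CPM (n = 4) with finerenone, -0.61 ± 0.12 against DOCA (edgeR adjusted p = 0.0021). With all 16 libraries these log2 fold changes were 1.49 and -0.81, both called. Spironolactone replicates 1 to 4 stood at 51.4, 69.2, 52.7 and 63.9 CPM and overlapped the DOCA libraries.

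Cd68, the macrophage lysosomal marker, stood at 7.08, 8.55, 7.38 and 10.2 CPM in control replicates 1 to 4, at 21.1, 22.1 and 20.6 CPM in DOCA replicates 1 to 3 and at 30.7 CPM in DOCA replicate 4. Finerenone replicates 1 to 4 had 17.0, 15.7, 10.8 and 14.7 CPM, so that finerenone replicate 3 came close to the highest control library. Spironolactone replicates 1 to 4 had 28.2, 22.5, 23.0 and 21.2 CPM. DOCA exceeded control with a log2 fold change of 1.36 ± 0.17 (SE, edgeR adjusted p = 8.34e-06). Finerenone was lower than DOCA with -0.55 ± 0.16 (edgeR adjusted p = 0.0224), a call that did not hold when any DOCA library was left out: the value was -0.55 without DOCA replicate 1 (edgeR adjusted p = 0.0608), -0.52 without DOCA replicate 2 (0.0752) and -0.57 without DOCA replicate 3 (0.0509). Without finerenone replicate 3 it was -0.40 (edgeR adjusted p = 0.0693), and with libraries of the same first code number summed it was -0.54 (edgeR adjusted p = 0.0887). With all 16 libraries it was -0.70 (edgeR adjusted p = 0.00568).

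Ptprc, the leukocyte common antigen, stood at 12.6, 12.7, 11.1 and 16.5 CPM in control replicates 1 to 4 and at 39.2, 42.1 and 42.7 CPM in DOCA replicates 1 to 3. Finerenone replicates 1 to 4 gave 30.7, 29.0, 23.4 and 20.3 CPM, between the other groups without overlap. DOCA replicate 4, the highest DOCA library for the other 4 genes, was the lowest for Ptprc at 31.3 CPM, barely above the highest finerenone library. DOCA exceeded control with a log2 fold change of 1.65 ± 0.16 (SE, edgeR adjusted p = 1.18e-06), and finerenone was below DOCA with -0.68 ± 0.16 (edgeR adjusted p = 0.0055). With all 16 libraries the values were 1.56 and -0.59, both called. Spironolactone replicates 1, 3 and 4 stood together at 38.2, 38.2 and 38.8 CPM, and spironolactone replicate 2 stood apart at 53.0 CPM.

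**Figure D2:**
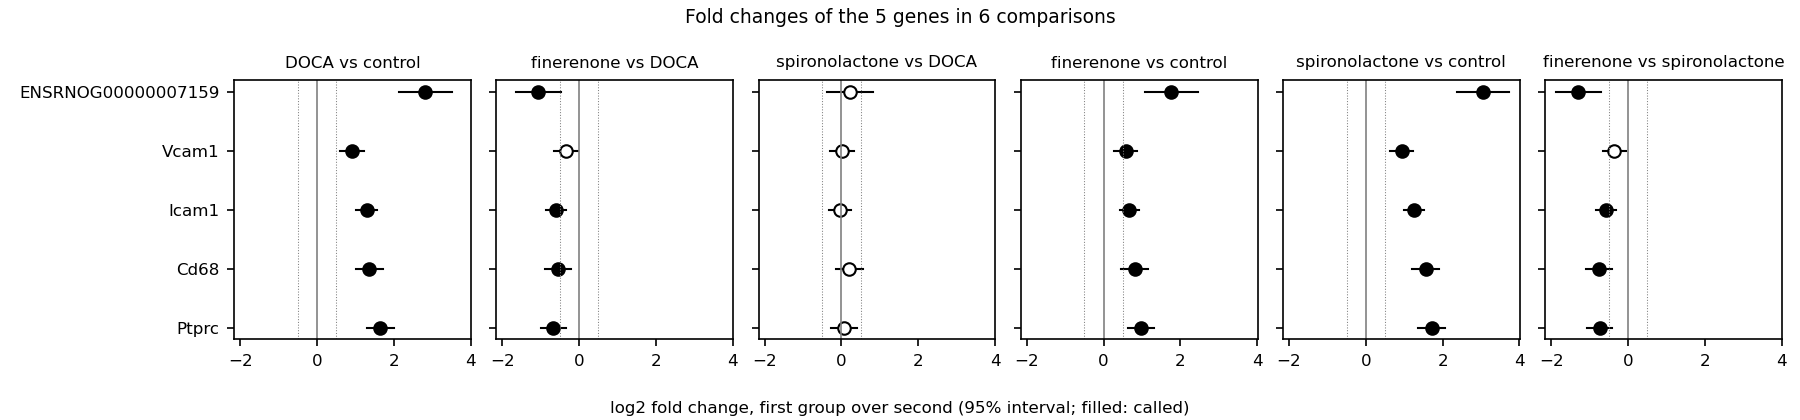
Log2 fold change of each gene, first-named group over second, in the 6 comparisons, with 95% intervals from edgeR over the 14 tested libraries; filled points were called and dotted lines mark a log2 fold change of 0.5 in either direction. All intervals for DOCA against control lie above 0, and all 5 for spironolactone against DOCA cross 0.

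Per transcript length, Icam1 was the most abundant of the 5 in control, with 8.59 ± 0.689 TPM (n = 4), then Cd68 with 7.13 ± 1.28 TPM, Vcam1 with 6.74 ± 0.993 TPM, Ptprc with 2.54 ± 0.446 TPM and ENSRNOG00000007159 with 2.24 ± 0.694 TPM. Icam1, Cd68 and Vcam1 overlapped in their control libraries, as did Ptprc and ENSRNOG00000007159. In DOCA the order was Icam1 with 30.0 ± 0.998 TPM (n = 3), Cd68 with 26.0 ± 0.532 TPM, ENSRNOG00000007159 with 22.7 ± 6.29 TPM, Vcam1 with 18.1 ± 2.19 TPM and Ptprc with 11.4 ± 0.470 TPM. The ID without a symbol thus moved from the lowest of the 5 to the middle, while its DOCA libraries, from 15.99 to 28.44 TPM, overlapped those of Cd68 and Vcam1.

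Whether some members rose more than others does not depend on how libraries are scaled, since the ratio of 2 genes within a library cancels the scale. The log2 ratio of ENSRNOG00000007159 to Vcam1 was 1.93 higher in DOCA than in control, and its log2 ratio to Icam1 1.56 higher. The log2 ratio of Vcam1 to Cd68 was 0.45 lower, and that of Vcam1 to Ptprc 0.74 lower. In each of these 4 pairs the groups did not overlap, and the two-sided exact permutation p was 0.0286, the smallest that 35 splits of 4 and 3 libraries allow. After Benjamini-Hochberg adjustment over the 10 pairs each was 0.0714 by this exact permutation test, so 0 of 10 pairs passed. With so few libraries at least 6 of the 10 pairs would have to sit at the smallest p for any to pass, and the count says little about whether the members differ. For finerenone against DOCA 0 of 10 pairs passed under the same limit, and the ratio of Vcam1 to Icam1 had the smallest exact permutation p, with a log2 difference of 0.27 (p = 0.0286, adjusted 0.286).

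Finerenone kidneys did not reach control levels. All 5 genes were called higher with finerenone than in control. That compares with 3.33% of all genes and 16.5% of the 1999 IDs with a symbol. The log2 fold changes ran from 0.57 for Vcam1 to 1.76 for ENSRNOG00000007159, with edgeR adjusted p from 0.00188 to 0.0213. For 4 of the 5 the finerenone and control libraries did not overlap, compared with 6.19% of all genes that lay higher without overlap. Vcam1 was the exception, through finerenone replicate 1, and its call was lost when control replicate 1, control replicate 3, finerenone replicate 2 or finerenone replicate 4 was left out, with edgeR adjusted p of 0.0783, 0.0654, 0.0657 and 0.0648. When libraries with the same first code number were summed, 2 of the 5 were called: the call was lost for ENSRNOG00000007159 (log2 fold change 1.72, edgeR adjusted p = 0.0577), Vcam1 (0.58, 0.117) and Cd68 (0.79, 0.0557). Set on a linear CPM scale where control is 0% and DOCA is 100%, the finerenone mean lay at 39.4% for ENSRNOG00000007159, 41.3% for Icam1, 45.0% for Ptprc, 48.3% for Cd68 and 54.9% for Vcam1. With all 16 libraries these positions were 30.4%, 33.1%, 49.4%, 40.8% and 49.4% in the same order. They describe group means and were not tested.

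Spironolactone kidneys stood near DOCA for all 5 genes. None was called by edgeR (adjusted p = 0.99957 for each), 0 of 5 had an unadjusted p below 0.05, and DESeq2 and limma-voom called none of the 5. The 95% interval of the log2 fold change ran from -0.37 to 0.83 for ENSRNOG00000007159, -0.30 to 0.33 for Vcam1, -0.31 to 0.24 for Icam1, -0.15 to 0.56 for Cd68 and -0.28 to 0.41 for Ptprc. These intervals do not exclude changes of those sizes. For Cd68 the 3 tested spironolactone libraries lay above the 3 tested DOCA libraries, as 5.44% of all genes did, and they overlapped once the set-aside libraries were included. All 5 were called higher with spironolactone than in control, against 14.7% of all genes and 67.6% of the 1999 IDs with a symbol. The log2 fold changes ran from 0.93 to 3.06, and none of the 5 overlapped control, against 20.6% of all genes higher without overlap.

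The drugs were also set against each other directly. Finerenone was lower than spironolactone for all 5 genes without overlap, compared with 14.3% of all genes. Of the 5, 4 were called, against 6.84% of all genes and 33.5% of the 1999 IDs with a symbol. The log2 fold changes were -1.29 for ENSRNOG00000007159, -0.76 for Cd68, -0.74 for Ptprc and -0.58 for Icam1, with edgeR adjusted p from 0.00357 to 0.00392. Vcam1 had -0.36 and was not called (edgeR adjusted p = 0.0911). The Icam1 value fell short of the size limit when finerenone replicate 1 (-0.49) or spironolactone replicate 2 (-0.43) was left out, and ENSRNOG00000007159 was not called when libraries with the same first code number were summed (-1.21, edgeR adjusted p = 0.0707). The comparisons of the drugs with DOCA and with each other share libraries, and each is given by its own values.

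Over the 16 libraries the log2 CPM of the 5 genes moved together, with Pearson r between 0.83 and 0.97 for the 10 pairs. These points share the group differences. With each group's mean removed r ran from -0.33 to 0.75 and 7 of 10 pairs stayed above 0. The highest was 0.75 between ENSRNOG00000007159 and Icam1 and the lowest -0.33 between Icam1 and Ptprc. Ptprc was also below 0 with ENSRNOG00000007159 (-0.21) and Vcam1 (-0.18), and at 0.11 with Cd68. These values rested in part on DOCA replicate 4. Without that library, a choice made after seeing the data, r over the other 15 libraries ran from -0.40 to 0.61 with group means removed, and 6 of 10 pairs were above 0. It was then 0.61 between ENSRNOG00000007159 and Icam1 and -0.40, the lowest, between Icam1 and Cd68 (0.15 with all 16). Ptprc stood at -0.05 with Icam1, -0.05 with Vcam1, 0.03 with ENSRNOG00000007159 and 0.44 with Cd68.

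**Figure D3:**
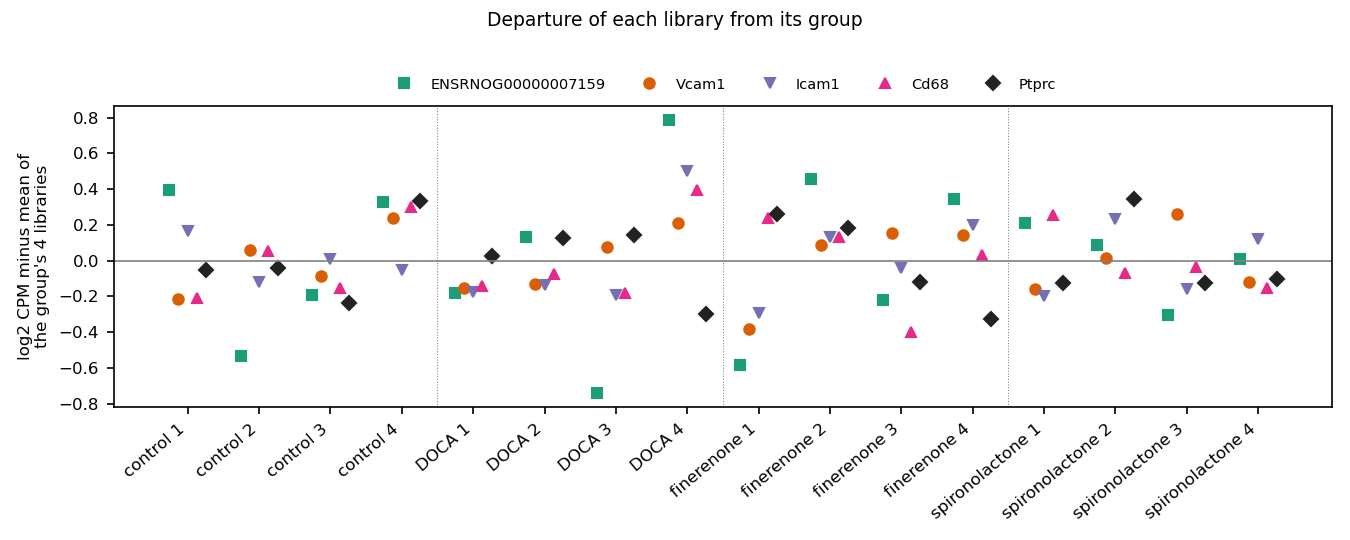
Departure of each library's log2 CPM from the mean of its group's 4 libraries, for the 5 genes; dotted lines part the groups. In DOCA replicate 4 ENSRNOG00000007159, Icam1, Cd68 and Vcam1 lie above 0 and Ptprc below.

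The library most at odds with its group was DOCA replicate 4. Its log2 CPM departed from the DOCA mean by 0.79 for ENSRNOG00000007159, 0.50 for Icam1, 0.39 for Cd68 and 0.21 for Vcam1, and by -0.30 for Ptprc. Other lists moved with it in that library. The summed level of 7 injured-tubule genes, including the injury marker Havcr1 and the matrix protein Spp1, was 20771 TPM there, of which Spp1 supplied 91.6%, against 8145 to 9060 TPM in DOCA replicates 1 to 3. Without Spp1 the other 6 summed to 1743 TPM against 597 to 786 TPM. The sum of 13 monocyte and macrophage genes was 2162 TPM against 1303 to 1735 TPM. The sum of 3 lymphocyte genes was lower, 25.1 TPM against 39.1 to 46.7 TPM, as was that of 3 chemokine receptors, 11.5 TPM against 16.2 to 22.8 TPM. Cd4, which rat macrophages also carry, made up most of the lymphocyte sum in DOCA replicates 1 to 3. The means there were 33.6 TPM for Cd4, 5.02 TPM for Cd2 and 3.70 TPM for Cd6. The sum of 7 pan-leukocyte genes lay within the range of the others, 311 TPM against 277 to 315 TPM. Their part in the levels of the 5 genes was not tested.

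For each of the 5, the IDs with the most similar log2 CPM over the 16 libraries were sought among the 1999 IDs that carry a symbol, most of which are genes the study listed as changed by DOCA. The r values that follow include DOCA replicate 4, set aside from the tests, and were not computed without it. How far they rest on that library was not tested. ENSRNOG00000007159 was closest to Spp1 (Pearson r = 0.98, and 0.86 with group means removed), then to the phosphate transporter Slc34a2 (0.98 and 0.83) and the secreted protease Adamts1 (0.97 and 0.71). Vcam1 was closest to the transporter Abca8a (0.98 and 0.89), the fibrillar collagen chain Col11a1 (0.97 and 0.85) and the WNT inhibitor family gene Dkk2 (0.97 and 0.82). Icam1 was closest to the transcriptional repressor Tgif1 (0.99 and 0.91), the tubulin Tubb6 (0.98 and 0.89) and the basement membrane collagen Col18a1 (0.98 and 0.89). Cd68 was closest to the leukocyte PI3-kinase subunit Pik3r5 (0.97 and 0.80), Ehd4 (0.97 and 0.84) and the collagen cross-linking enzyme Lox (0.97 and 0.76). Ptprc was closest to complement C4b (0.96 and 0.53), the myosin Myo1f (0.96 and 0.57) and the adenylyl cyclase Adcy7 (0.96 and 0.43).

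Around the 5 genes, 104 genes were listed as chemokines, their receptors, leukocyte adhesion genes, markers of leukocyte types, NF-kappaB feedback genes, endothelium and tubule, and 57 of them carried a symbol and were tested. Since symbols came mostly from the study's list of genes changed by DOCA, the count of 49 called higher in DOCA, and 0 lower, was set by that choice and supports nothing. Against DOCA, finerenone had 25 of the 57 called lower and 0 higher, beside 7.70% lower among all genes and 37.3% lower (745 IDs) among the 1999 IDs with a symbol, the closer background. Spironolactone had 0 called against DOCA in either direction by edgeR or DESeq2, with 5 of 57 at an unadjusted p below 0.05. The symbols were chosen through DOCA libraries that the drug comparisons share, so the direction of these counts is not independent of that choice. Fold changes of single genes below come from the CPM fits, while sums and some group means of single genes are in TPM. On log2(TPM + 1) the median of all genes was 0.42 for DOCA against control and -0.34 for finerenone against DOCA. Differences between groups in these sums and TPM means therefore include a shift of the whole table. The 4 tubule genes, with 0 called in DOCA against control, summed to between 947 and 1210 TPM in control and 1653 and 1856 TPM in DOCA.

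Of 7 chemokines tested, 2 were called lower with finerenone than in DOCA, the interferon-induced pair Cxcl10 and Cxcl11. Cxcl10 had 5.34 TPM in control, 41.6 TPM in DOCA, 10.6 TPM with finerenone and 28.0 TPM with spironolactone (means), and finerenone against DOCA gave a log2 fold change of -1.58. Cxcl11 had a log2 fold change of -1.77. The lymph node chemokine Ccl21 had 105 TPM in DOCA and 94.4 TPM with finerenone. In CPM its means were 51.1 in DOCA and 60.4 with finerenone. The log2 fold change of 0.24 was not called (edgeR adjusted p = 0.532). Cxcl16, the most abundant of them, had -0.19 and Ccl19 had -0.66, neither called. Among 3 chemokine receptors, Cx3cr1 had a log2 fold change of -0.68 and Cxcr3 one of 0.08. Of the 3, 0 were called by edgeR or DESeq2 and 2 had an unadjusted p below 0.05.

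Some subunits of the integrins that VCAM1 and ICAM1 bind were among the 5 leukocyte adhesion genes tested. Itga4 and Itgam, also listed, carried no symbol and were not tested. Of the 5, 3 were called lower with finerenone: Itgal with -0.88, Itgb2 with -0.82 and Itgax with -0.65. Itgb1, a subunit found on most cells, had -0.47, under the size limit, and the selectin ligand Selplg had -0.59 (edgeR adjusted p = 0.195). The 5 summed to between 88.2 and 108 TPM in control, 206 and 222 TPM in DOCA, 105 and 124 TPM with finerenone and 211 and 224 TPM with spironolactone. Itgb1 supplied between 81.2% and 89.8% of the sum in every tested library, so these sums mostly follow that gene. Without it the other 4 summed to between 9.25 and 11.9 TPM in control, 36.9 and 38.8 TPM in DOCA, 12.8 and 23.2 TPM with finerenone and 35.4 and 40.8 TPM with spironolactone. The finerenone sums overlapped those of control with Itgb1 and lay above them without it.

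Beside Cd68, 13 monocyte and macrophage genes were tested and 7 were called lower with finerenone than in DOCA. Csf1r, the receptor for the macrophage growth factor, had -0.91 (edgeR adjusted p = 2.4e-05), and the complement chains C1qa, C1qb and C1qc had -0.56, -0.80 and -0.64. The mannose receptor Mrc1 had -1.29, and Cd14 and the scavenger receptor Msr1 had -0.88 and -0.77. The other 6 were not called: Lyz2 had -0.31, Tyrobp -0.37, Adgre1 -0.12, Fcer1g -0.11, Spi1 -0.12 and Aif1 -0.07. The sum of the 13 was 416 to 669 TPM in control, 1303 to 1735 TPM in DOCA, 810 to 881 TPM with finerenone and 1410 to 1527 TPM with spironolactone. Beside Ptprc, 4 of 7 pan-leukocyte genes were called lower with finerenone, namely Cd53 (-0.79), Lcp1 (-0.72), Cd48 (-0.56) and Coro1a (-0.52), with Laptm5 (-0.54) not passing. Of 3 lymphocyte genes 1 was called lower, Cd4 (-0.63), which rat macrophages also carry, while Cd2 had -0.26 and Cd6 -0.63, not called. The NF-kappaB feedback genes had 4 of 6 called lower, Tnfaip3 with -1.33, Nfkbia with -0.79, Nfkbiz with -0.77 and Nfkbie with -0.58, beside Nfkb2 with -0.44 and Relb with -0.39, not called. Endothelial genes had 0 of 2 called by edgeR or DESeq2, both with an unadjusted p below 0.05, with -0.30 for Cdh5 and -0.36 for Cd34, near the -0.34 of Vcam1.

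**Figure D4:**
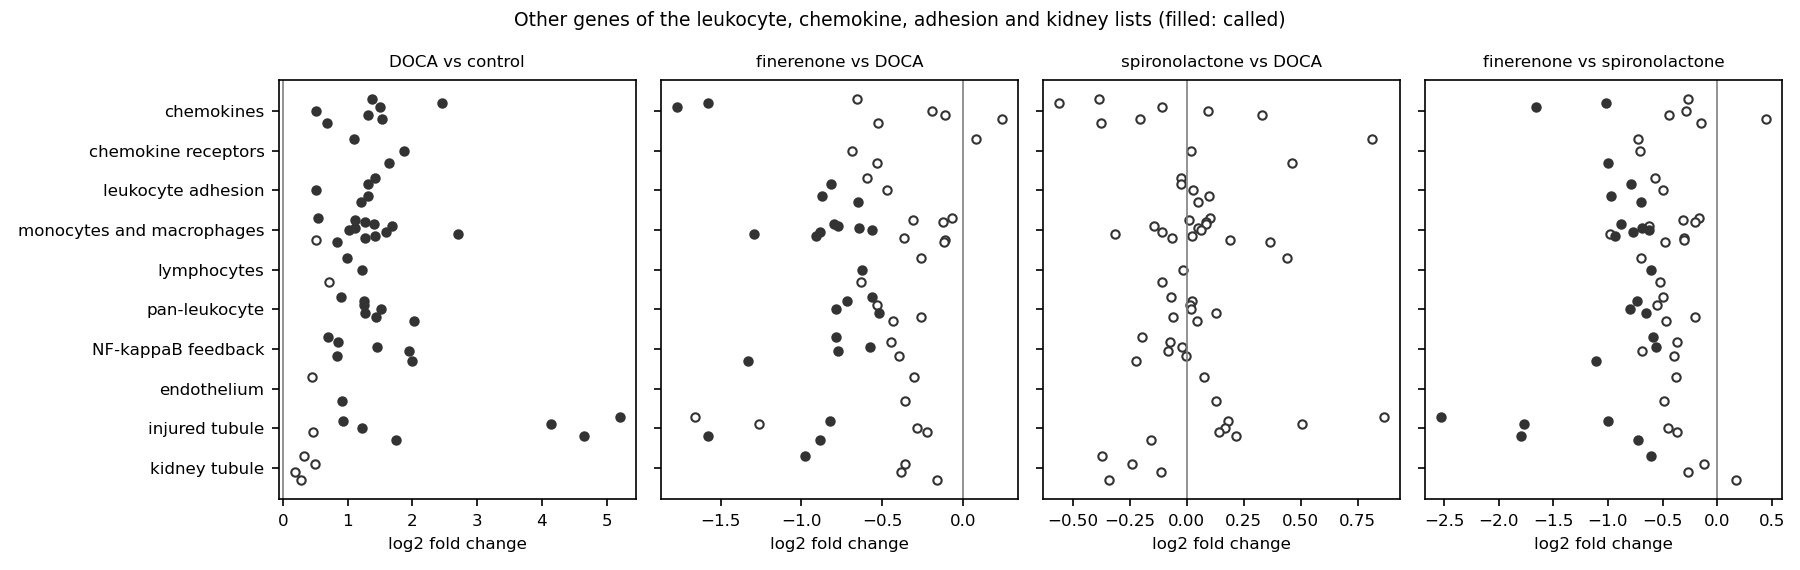
Log2 fold change of the 57 listed genes with a symbol, by list (rows), in 4 comparisons; each point is a gene and filled points were called. Finerenone against DOCA has 25 filled points, all below 0, and spironolactone against DOCA has none.

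Injured-tubule genes were tested beside them. Of 7, 3 were called lower with finerenone than in DOCA, Spp1 (-1.58), Krt18 (-0.88) and Krt8 (-0.82), while Havcr1 (-1.66, edgeR adjusted p = 0.0578) and Lcn2 (-1.27, edgeR adjusted p = 0.0788) missed the threshold. The growth factor chain Pdgfb (-0.28, edgeR adjusted p = 0.200) and the CSF1 receptor ligand Il34 (-0.23, edgeR adjusted p = 0.176) were not called either. Their sum ran from 286 to 518 TPM in control, 8145 to 9060 TPM in DOCA, 1477 to 3189 TPM with finerenone and 6437 to 15352 TPM with spironolactone. Most of it was Spp1, which supplied 91.3% to 93.2% in DOCA and 84.9% to 89.7% with finerenone. Without Spp1 the other 6 summed to between 597 and 786 TPM in DOCA and 223 and 329 TPM with finerenone. Of the 4 tubule genes, Scnn1a alone was called lower with finerenone than in DOCA (-0.98, edgeR adjusted p = 2.4e-05), with -0.36 for Cdh1 and -0.16 for Scnn1b. The part of tubule injury, or of the number of leukocytes, in the levels of the 5 genes was not tested.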

How the data were processed

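The authors trimmed reads with Trim Galore 0.4.5, aligned them with STAR 2.7.3a to Rnor_6.0 (rn6) and quantified genes with RSEM, per the labels' processing notes, and deposited a table of estimated counts and a table of TPM, both indexed by Ensembl ID. The 5 members and all gene lists were chosen with earlier results of these data known. Every member was reported. An ID received a symbol when its deposited TPM equalled those beside a single symbol in the study's supplementary lists, which gave 1999 IDs with symbols. Those lists hold 14 of the 16 libraries. Estimated counts, 3.14% of which were not whole, were rounded. The filter kept 14628 genes, those reaching more than 4 counts in 3 or more libraries. A quasi-likelihood model over all 4 groups was fitted in edgeR 4.0.16 (R 4.3.3) with TMM factors and robust dispersion, with Benjamini-Hochberg adjustment. DESeq2 1.42.0, limma 3.58.1 and other scalings, filters and left-out libraries served as alternatives. Ratios of members were compared by two-sided exact permutation tests. The script was checked on simulated data. Replicates within groups differed by more than sampling noise. Similarity was Pearson r on log2 CPM (prior count 2), and in each list up to 4 genes of highest mean TPM were to be named; further genes named from the lists were chosen after their values were seen. Promoter windows came from RefSeq (GRCr8). Some listed genes are not reported here by name.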

Additional observations from a re-analysis of the deposited data

Results flagged for a closer look

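In 4 of the 20 sets of 4 libraries (5 genes in 4 groups) a single library stood far from the other 3 by Dixon's criterion, which chance alone meets in about 1 of 20. Vcam1 was low in finerenone replicate 1, at 24.1 CPM against 33.4 to 35.0 CPM. Icam1 was high in DOCA replicate 4, at 93.9 CPM, as was Cd68, at 30.7 CPM; that library was outside the tests. Ptprc was high in spironolactone replicate 2, at 53.0 CPM against 38.2 to 38.8 CPM.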

How the results depend on the processing

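Of 870 gene-level values under other settings, 847 stayed on the same side of the threshold, 17 lost the call, 6 gained it and 0 called values changed sign. A sign change was seen in 13 values that were not called, all for spironolactone against DOCA. The count of members called stayed within 1.5 times the reported count for DOCA against control, spironolactone against control and spironolactone against DOCA under every setting run. For finerenone against DOCA 4 were called, 2 to 4 with each library left out in turn (2 without DOCA replicate 2, where ENSRNOG00000007159 and Cd68 lost the call), 2 when libraries whose label codes begin with the same number were summed, and 1 when the size limit on the log2 scale was raised to 1. For finerenone against control 5 were called, 2 when summed and 1 at that limit. For finerenone against spironolactone 4 were called and 1 at that limit. Putting back DOCA replicate 4 or spironolactone replicate 4 singly, an alternative chosen after seeing the data, left every member count as reported. Over all settings the adjusted p for finerenone against DOCA ran from 0.00121 to 0.119 for ENSRNOG00000007159, 0.000492 to 0.0887 for Cd68 and 0.00516 to 0.300 for Vcam1, and for finerenone against control from 0.00519 to 0.117 for Vcam1. Whether replicate numbers pair libraries across groups was not settled. The correlation of same-numbered libraries ran from -0.15 to 0.29, 5 of 24 were above 0.1, and 7 of 16 libraries correlated best with their own number. No chance value was computed for these, so a pairing is not excluded. With the replicate number as a block, 5, 4, 0, 5, 5 and 4 members were called in the order of the comparisons plotted above. Genes called over the whole table moved by more than 1.5 times in places: finerenone against control had 612, but 168 when summed, 362 with DOCA replicate 4 put back and 349 without finerenone replicate 2; finerenone against DOCA had 2011, but 1185 when summed, 3290 by library size alone and 4321 on log2(TPM + 1); finerenone against spironolactone had 1672, but 680, 2640 and 4065 under the same settings and 1053 without spironolactone replicate 2; DOCA against control had 3902 and 6098 on log2(TPM + 1); spironolactone against control had 3604 and 5898; spironolactone against DOCA had 0, but 11 in DESeq2, none of them a member. With library size alone and log2(TPM + 1) the median of all genes in DOCA against control stood at 0.37 and 0.42, against 0.02 as reported, and the split of higher to lower calls went from 2247 to 1655 to 4530 to 494 and 5763 to 335. The cause of these shifts was not tested.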
